A study of Mus musculus with 383 samples.

Results

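RNA-rich and RNA-poor Epcam-negative tumour cells of mouse skin squamous cell carcinoma were compared. They were selected on a measured value, the RNA content of each cell, taken as the reads in genes divided by the reads in ERCC spike-ins, a set of synthetic RNAs added to every well in the same amount. Of 310 wells labelled as single Epcam-negative cells, 263 were kept by limits of 100000 gene reads and 2000 detected genes as the least, and 20% mitochondrial and 50% ERCC reads as the most. The upper 25% of these by content, 65 cells, are called RNA-rich here, and the lower 25%, also 65 cells, RNA-poor, with 133 cells between them. The whole series held 383 wells of one 384-well plate.

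The cells came from tumours of mice in which Lgr5CreER, a tamoxifen-inducible recombinase expressed in hair follicle stem cells, acted on p53fl/fl alleles and a second, Cre-activated oncogene allele, with Rosa26-YFP+/+ as the reporter of recombination. All cells, RNA-rich and RNA-poor, share this genotype, and all were sorted alive as YFP-positive single cells without surface Epcam, an adhesion protein of epithelia. Transcriptomes were made by a modified Smart-seq2 protocol, which copies full-length mRNA and adds no molecular identifiers. The labels name neither the animal nor the tumour of a cell, so the Epcam-negative cells are 1 sample, cells are not replicates of a condition, and no test between the groups was made. All values below are descriptions of this plate, and their intervals, exact at 95%, cover counting error only. Those on levels take reads, and those on shares of cells take cells, as independent draws. Neither covers spread between animals or tumours.

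As background, the amount of mRNA in a cell follows its size and its position in the cell cycle, since a cell builds up its contents before it divides. Growth needs the making of ribosomes, amino acids charged onto tRNA, protein folding and nucleotides, whereas cells that leave the cycle turn on growth-arrest genes under FOXO and related factors. Carcinoma cells that have lost Epcam in an epithelial-mesenchymal transition make vimentin and collagens, as fibroblasts do.

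RNA content was 247 to 1079 gene reads per ERCC read in RNA-rich cells, with a median of 334, and 5.37 to 82.7 in RNA-poor cells, with a median of 54.8. The medians stood in a ratio of 6.09, and the groups cannot overlap, because the rule cut them on this value. The cell just below the RNA-rich group had 246 and the cell just above the RNA-poor group 83.4. Both terms of the ratio moved: the median was 484620 gene reads and 1534 ERCC reads in RNA-rich cells, and 242972 gene reads and 5147 ERCC reads in RNA-poor cells. In sum, 32503396 gene reads stood behind the RNA-rich and 17088292 behind the RNA-poor values. The well set up with 0 Epcam-negative cells had 4018 gene reads and a content of 0.312, so free RNA in that well was far below any kept cell. The well set up with 0 Epcam-positive cells had 99241 gene reads and a content of 12.1, above 1 RNA-poor cell, and was not used.

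The RNA-rich cells had more genes at equal read depth. Thinning equalises reads, not molecules, which were not counted. How far the gene numbers here and the presence counts below follow from the selection on content was not tested. After random thinning of every cell to 100000 reads there were 4536 to 8079 genes with a read in RNA-rich cells (median 6188), against 2362 to 7255 in RNA-poor cells (median 4130), a ratio of 1.50 between the medians. Over 4 content groups of equal share, from the lowest (RNA-poor) to the highest (RNA-rich), the medians were 4130, 4929.5, 5615 and 6188 genes. The groups overlapped: 16 RNA-poor cells had more genes than the lowest RNA-rich cell, and 6 of them stood apart, with 6509 to 7255 genes at contents of 5.37 to 70.2. With a minimum of 5 thinned reads, the level at which a gene is called present below (50 CPM, counts per 1000000 gene reads), the medians were 3642 genes in RNA-rich and 2402 in RNA-poor cells.

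**Figure D1:**
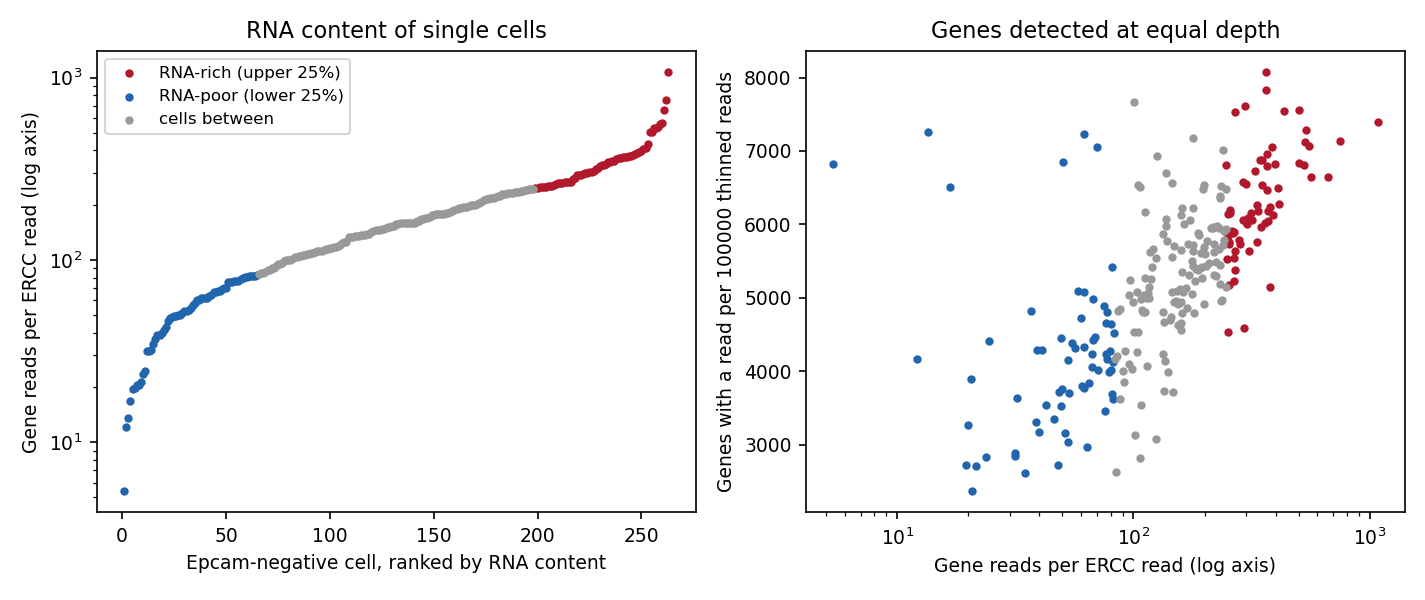
Left, gene reads per ERCC read (log axis) of the 263 Epcam-negative cells, ranked, with the RNA-rich and RNA-poor cells coloured. Right, the same content against genes with a read after thinning to 100000 reads; the median is 6188 genes in RNA-rich and 4130 in RNA-poor cells, and 6 RNA-poor cells lie above 6188.

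Some signs of RNA quality and plate position moved with content. The mitochondrial share was 1.63% to 8.46% in RNA-rich cells (median 4.18%) and 0.04% to 18.4% in RNA-poor cells (median 4.58%). It exceeded 10% in 0 RNA-rich and 7 RNA-poor cells. Its medians from the lowest to the highest content group, 4.58%, 4.06%, 4.39% and 4.18%, did not follow content step by step. A feature annotated as ribosomal RNA, CT010467.1, took 0.60% to 4.10% of reads in RNA-rich cells (median 2.62%) and 0.95% to 41.7% in RNA-poor cells (median 3.63%), and its medians from the lowest to the highest content group were 3.63%, 3.30%, 2.88% and 2.62%. Lars2, annotated as a mitochondrial synthetase, had medians of 0.135%, 0.0874%, 0.0614% and 0.0501% in the same order, and mt-Rnr1, a mitochondrial ribosomal RNA, 0.187% in RNA-rich and 0.352% in RNA-poor cells. Plate columns 1 to 12 held 41 RNA-rich and 30 RNA-poor cells, and columns 13 to 24 held 24 and 35. Within the second set the imbalance lay in columns 18 to 20, with 2 RNA-rich and 17 RNA-poor cells. When the groups were cut anew without those columns, 1664 genes were at least 2-fold higher and 1005 at least 2-fold lower, and the medians were 3.65 for the G2 and M phase list, 0.98 for the aminoacyl-tRNA synthetases, -1.31 for the growth-arrest list and -0.92 for the nuclear noncoding RNAs described below. All 13 plate rows with kept Epcam-negative cells held both kinds. The part of these values in the results below was not tested, but ratios were also computed among the same RNA-rich and RNA-poor cells within each set of columns.

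Reads were summed over the cells of a group and scaled to CPM, and 9515 genes reached 10 CPM in RNA-rich or RNA-poor cells. A ratio is log2 of (CPM in RNA-rich + 1) over (CPM in RNA-poor + 1). Of the 9515 genes, 1366 (14.4%) were at least 2-fold higher and 1069 (11.2%) at least 2-fold lower in RNA-rich cells, with a median ratio of 0.11 over all measured genes and 55.1% of them above 0. The excess of higher genes depended on the scaling: the counts were 1208 higher and 1195 lower with TMM factors, and 1203 and 1203 with DESeq2 size factors. Within both sets of columns, 1319 of the 1366 and 869 of the 1069 had the same direction, and after thinning 1366 and 1068 did. Without the 6 RNA-poor cells that stood apart the counts were 1537 higher and 1115 lower, and without CT010467.1 in the total 1311 higher and 1129 lower. Over all measured genes, 79.8% were present in more RNA-rich than RNA-poor cells at equal depth, and the cell with the most reads of a gene gave a median of 10.5% of the RNA-rich and 22.5% of the RNA-poor reads. Of the genes higher in RNA-rich cells, 1349 were present in more RNA-rich than RNA-poor cells, and in 42 a single cell gave over 50% of the RNA-rich reads. Of the genes lower in RNA-rich cells, 775 were present in more RNA-poor cells and 205 in more RNA-rich cells, and in 269 a single cell gave over 50% of the RNA-poor reads. With the top cell for each gene taken out of both groups, 1345 of the 1366 higher and 714 of the 1069 lower genes were still 2-fold apart.

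Mitotic genes were higher in RNA-rich cells. All 20 genes of the G2 and M phase list were measured, 19 were at least 2-fold higher in RNA-rich cells against the background of 14.4%, and their median ratio was 3.22, or 3.87 without the 6 RNA-poor cells that stood apart. The list summed to 0 to 10433.9 CPM in RNA-rich cells (median 196) and 0 to 4115 CPM in RNA-poor cells (median 17.5), so cells without mitotic transcripts were found in both groups. From the lowest to the highest content group the summed level was 171, 305, 490 and 1260 CPM. Of the members, Cks2, a small subunit of the cyclin-dependent kinases, had the smallest ratio, at 0.92. It was the 1 member under 2-fold.

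Cdk1, the kinase that drives entry into mitosis (chr10:69335146-69352938, minus strand, GRCm38), had 0 to 1232 CPM in RNA-rich cells, with a median of 19.9, and 0 to 683 CPM in RNA-poor cells, with a median of 0. Summed over cells it had 160 CPM (156 to 165) in RNA-rich and 18.6 CPM (16.6 to 20.8) in RNA-poor cells, a ratio of 3.04. It was present in 29 of 65 RNA-rich cells (44.6%, Clopper-Pearson 32.3% to 57.5%) and in 3 of 65 RNA-poor cells (4.62%, 0.96% to 12.9%). The ranges overlap, and the groups differed in how many cells reached the presence level of 5 thinned reads. Below that level, Cdk1 reads were found in further cells of both groups. Ccnb2, a B-type cyclin and partner of Cdk1 (chr9:70407692-70421547, minus strand), had 0 to 762 CPM in RNA-rich and 0 to 327 CPM in RNA-poor cells, with a median of 0 in both. Its summed level was 80.0 CPM in RNA-rich and 5.62 CPM in RNA-poor cells, with presence in 21 and 3 cells and a ratio of 3.61. Racgap1, which organises the cleavage furrow of dividing cells, had the highest ratio of the genes picked by size and prevalence, 3.81, with 65.4 CPM in RNA-rich and 3.75 CPM in RNA-poor cells. Cdca3, which promotes mitotic entry, and Mad2l1, a spindle checkpoint protein, were among the same 12 highest genes, with ratios of 3.20 and 2.84. Aurkb, the chromosomal passenger kinase, Birc5, its partner survivin, and Ccnb1, the other mitotic B-type cyclin, had ratios of 3.92, 3.82 and 3.84.

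Mki67, a coat protein of mitotic chromosomes, or Top2a, the topoisomerase that untangles replicated DNA, was present in 19 of 65 RNA-rich cells (29.2%, 18.6% to 41.8%) and in 8 of 65 RNA-poor cells (12.3%, 5.47% to 22.8%). The intervals overlap. The 4 content groups held 8, 5, 11 and 19 such cells from low to high, so the count did not follow content step by step. With a single thinned read as the minimum, 30 RNA-rich and 17 RNA-poor cells had either gene.

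DNA replication genes were higher less evenly. Of 18 measured S phase genes, 11 were at least 2-fold higher in RNA-rich cells, against 14.4% of all genes. None was 2-fold lower, and the median ratio was 1.48. The higher ones were led by the subunits of the MCM helicase, which opens the DNA double strand: Mcm3, Mcm5, Mcm2 and Mcm6 had ratios of 3.31, 3.05, 2.80 and 2.66. Mcm2 had 62.1 CPM in RNA-rich and 8.08 CPM in RNA-poor cells and was present in 23 and 4 cells. Pcna, the sliding clamp of DNA polymerase, was no higher, at a ratio of -0.11. Against 14.4% of all genes, 4 of 16 measured G1 regulators were at least 2-fold higher in RNA-rich cells (list median 0.65). They were Rbl1 and E2f1, a pocket protein and a transcription factor of the G1 to S step, and Ccnd1 and Cdk4, the cyclin D1 kinase pair. Ccnd1 had 429 CPM in RNA-rich and 152 CPM in RNA-poor cells, with presence in 51 and 32 cells and a ratio of 1.49. Cdk4 had 426 CPM in RNA-rich and 174 CPM in RNA-poor cells, with a ratio of 1.29.

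**Figure D2:**
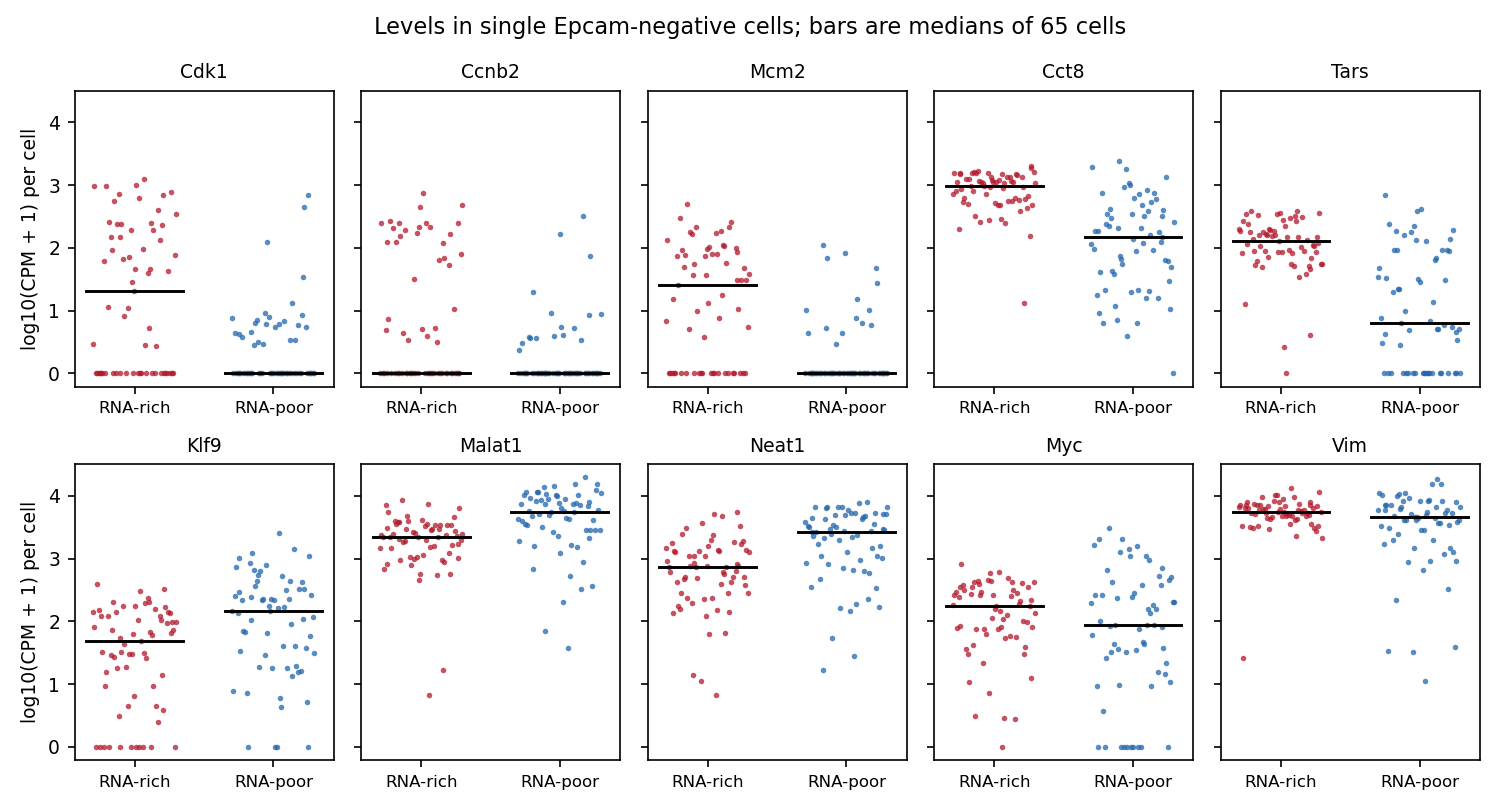
Level of 10 genes in each RNA-rich (left) and RNA-poor (right) Epcam-negative cell, as log10 of CPM + 1; bars are medians of 65 cells. Cdk1 and Ccnb2 have more RNA-rich than RNA-poor cells at high levels, with cells above 0 in both groups. Cct8 has overlapping ranges and a higher median in RNA-rich cells (979 CPM, against 150 CPM in RNA-poor cells). Malat1 is lower in RNA-rich cells (median 2224 CPM, against 5596 CPM in RNA-poor cells).

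The promoters of the mitotic genes are shown because these genes were high together. RefSeq promoter windows of build GRCm38.p6 were at hand for 18 of the 20 genes. Starts here are those of the RefSeq windows. The Cdk1 span given above begins upstream of this start, so it overlaps the printed Cdk1 window. In the 250 bases before the start, 7 of 18 (38.9%) held TTTGAA, the core of the cell cycle homology region, on either strand, against 15.99% of all 32851 promoters. CCAAT, the box bound by NF-Y, stood in 15 of 18 (83.3%), against 33.8% of all promoters, and both motifs in 7 of 18, against 5.55%. CCAAT was as frequent in other lists, in 8 of 9 promoters of the growth-arrest list and 9 of 11 of the cholesterol list. The S phase list had TTTGAA in 1 of 19 promoters and CCAAT in 13 of 19. In 5 mitotic promoters TTTGAA lay close to the start, its first base 15 to 29 bases before it: Cdk1 (chr10:69352913-69353032, minus strand, ratio 3.04), Cdc20 (chr4:118437344-118437463, minus strand, 2.40), Kif11 (chr19:37376262-37376381, plus strand, 3.54), Top2a (chr11:99024190-99024309, minus strand, 1.96) and Ube2c (chr2:164769809-164769928, plus strand, 3.60). Cdc20 and Ube2c act in the ubiquitin ligase that ends mitosis, and Kif11 is the kinesin that pushes the spindle poles apart. The last 120 bases before each start, 5′ to 3′ on the gene's strand, follow, with both motifs in capitals; a TTTGAA on the other strand reads TTCAAA here, and a CCAAT box on the other strand reads as ATTGG. A match is a description of the letters, not of binding.
Cdk1: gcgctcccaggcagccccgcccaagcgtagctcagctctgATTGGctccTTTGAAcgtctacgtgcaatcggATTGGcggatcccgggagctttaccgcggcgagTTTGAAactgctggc
Cdc20: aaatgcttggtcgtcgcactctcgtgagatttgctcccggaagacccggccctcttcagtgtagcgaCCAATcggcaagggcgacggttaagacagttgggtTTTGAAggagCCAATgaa
Kif11: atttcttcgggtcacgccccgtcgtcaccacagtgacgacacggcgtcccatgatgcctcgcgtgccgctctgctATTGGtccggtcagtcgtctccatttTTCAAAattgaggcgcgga
Top2a: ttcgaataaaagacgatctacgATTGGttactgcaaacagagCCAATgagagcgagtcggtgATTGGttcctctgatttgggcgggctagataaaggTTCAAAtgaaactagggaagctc
Ube2c: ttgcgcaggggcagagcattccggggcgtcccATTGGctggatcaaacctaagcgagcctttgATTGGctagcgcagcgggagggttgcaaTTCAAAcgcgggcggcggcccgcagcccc

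Genes of protein synthesis and folding formed the second group that was higher in RNA-rich cells, and here the difference ran through most cells. Of 20 aminoacyl-tRNA synthetases, the enzymes that charge tRNA with amino acids, 20 had a ratio above 0, against 55.1% of all measured genes, and 10 were at least 2-fold higher, against 14.4%, with a median ratio of 0.98. Tars, the threonyl-tRNA synthetase, had 0 to 382 CPM in RNA-rich cells, with a median of 130, and 0 to 707 CPM in RNA-poor cells, with a median of 5.38. The ranges overlap, and the gene was present in 59 RNA-rich and 19 RNA-poor cells, at a ratio of 1.37. Hars, Gars and Iars, the synthetases for histidine, glycine and isoleucine, had ratios of 1.37, 1.32 and 1.26. The list summed to 1020 to 8542 CPM in RNA-rich cells (median 2902) and 28.8 to 6440 CPM in RNA-poor cells (median 1421).

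All 8 subunits of the CCT chaperonin, the ring complex that folds actin and tubulin, were higher in RNA-rich cells. Of these, 5 were at least 2-fold higher, against 14.4% of all genes, and the list median was 1.09. Cct8 (chr16:87483326-87495873, minus strand) had 12.4 to 1996 CPM in RNA-rich cells, with a median of 979, and 0 to 2444 CPM in RNA-poor cells, with a median of 150. Most RNA-poor cells lay within the RNA-rich range but below the RNA-rich median. The summed level was 949 CPM in RNA-rich and 373 CPM in RNA-poor cells, a ratio of 1.34, which was 0.79 in columns 1 to 12 and 2.22 in columns 13 to 24. Among the clients, Tuba1b and Tubb5, which encode tubulins, had ratios of 1.45 and 1.16, and Actb, cytoplasmic actin, 0.89.

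Ribosome assembly genes were higher, while ribosomal protein genes were close to level. Of 34 measured ribosome biogenesis genes, 31 had a ratio above 0 (55.1% of all genes) and 10 were at least 2-fold higher (14.4% of all genes), with a median of 0.81. Rpf2, an assembly factor of the large subunit that stood among the 12 highest genes, had 80.0 CPM in RNA-rich and 10.7 CPM in RNA-poor cells, with presence in 40 and 6 cells and a ratio of 2.80. Rrp1b, Rrp9 and Rrs1, further processing and assembly factors, had ratios of 1.96, 1.89 and 1.54. Utp20, a component of the small-subunit processome, ran against the list at -1.52, although it was present in 12 RNA-rich and 7 RNA-poor cells; 30.3% of its RNA-poor reads came from 1 cell. Of 74 measured cytosolic ribosomal protein genes, 3 were at least 2-fold higher, 2 were lower, and the median ratio was -0.14, or 0.24 with a stricter filter on cells. Their sum was 5800 to 32731 CPM in RNA-rich cells (median 14507) and 5985 to 126992 CPM in RNA-poor cells (median 12315). Many ribosomal protein genes have processed copies with which reads can be shared, so single members are uncertain. Eif6 and Eif2s1 were the 2 of 22 translation factors at least 2-fold higher (1.25 and 1.14), and the median of that list was 0.44.

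Intermediary metabolism was split in the same way. The background for each count of higher genes here was 14.4% of all measured genes. Of 14 nucleotide synthesis genes, 5 were at least 2-fold higher in RNA-rich cells (median 0.78). They included Tk1, thymidine kinase of dividing cells, at 2.52, and the purine enzymes Ppat and Adsl, at 2.48 and 2.47. Adsl had 119 CPM in RNA-rich and 20.7 CPM in RNA-poor cells and was present in 41 and 6 cells. Of 14 glycolysis genes, 6 were at least 2-fold higher (median 0.97), among them Slc2a1, the glucose transporter GLUT1 (1.22), Tpi1, triosephosphate isomerase (1.16), and Pfkl, a phosphofructokinase (1.09). Of 14 cholesterol synthesis genes, 5 were at least 2-fold higher (median 0.98). Dhcr7, which acts at the end of that pathway, had a ratio of 2.17. By contrast, 2 of 44 oxidative phosphorylation genes were at least 2-fold higher, among them Uqcrc1, a subunit of complex III, at 1.03, and the median was 0.04, or -0.03 with TMM scaling. None of 8 measured mitochondrially encoded protein genes was 2-fold apart (median 0.14). Got1, the cytosolic aspartate aminotransferase, stood among the 12 highest genes at 2.64 and was present in 39 RNA-rich and 5 RNA-poor cells.

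Amino acid stress genes followed, but unevenly over the plate. Of 10 measured genes of the integrated stress response, 4 were at least 2-fold higher, against 14.4% of all genes. The list median was 0.55, with 0.12 in columns 1 to 12 and 1.62 in columns 13 to 24. Of the 4 higher genes, 3 make amino acids or one-carbon units. They were Asns, asparagine synthetase, at 1.73, Psat1 of the serine pathway at 1.72 and Shmt2, mitochondrial serine hydroxymethyltransferase, at 1.61. Asns had 249 CPM in RNA-rich and 74.3 CPM in RNA-poor cells and was present in 47 and 16 cells, with ratios of 1.18 in columns 1 to 12 and 2.56 in columns 13 to 24. Trib3, an inhibitor of that response, ran the other way at -2.28, but 83.6% of its RNA-poor reads came from 1 cell and it was present in 12 RNA-rich and 3 RNA-poor cells; in columns 13 to 24 its ratio was 0.98. Of 31 proteasome genes, 31 had a ratio above 0 (55.1% of all genes) and 9 were at least 2-fold higher (14.4% of all genes), with a median of 0.69; Psmc1 and Psmd13, both of the regulatory particle, led with 1.43 and 1.42. Ppil1, a splicing-associated prolyl isomerase among the 12 highest genes, had a ratio of 3.00. Bid, a pro-apoptotic BCL2 family member, had 105 CPM in RNA-rich and 18.8 CPM in RNA-poor cells and a ratio of 2.42. No gene of the lists for RNA polymerase II (10 measured, median 0.35) or for the endoplasmic reticulum and secretion (28 measured, median 0.31) was 2-fold apart.

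**Figure D3:**
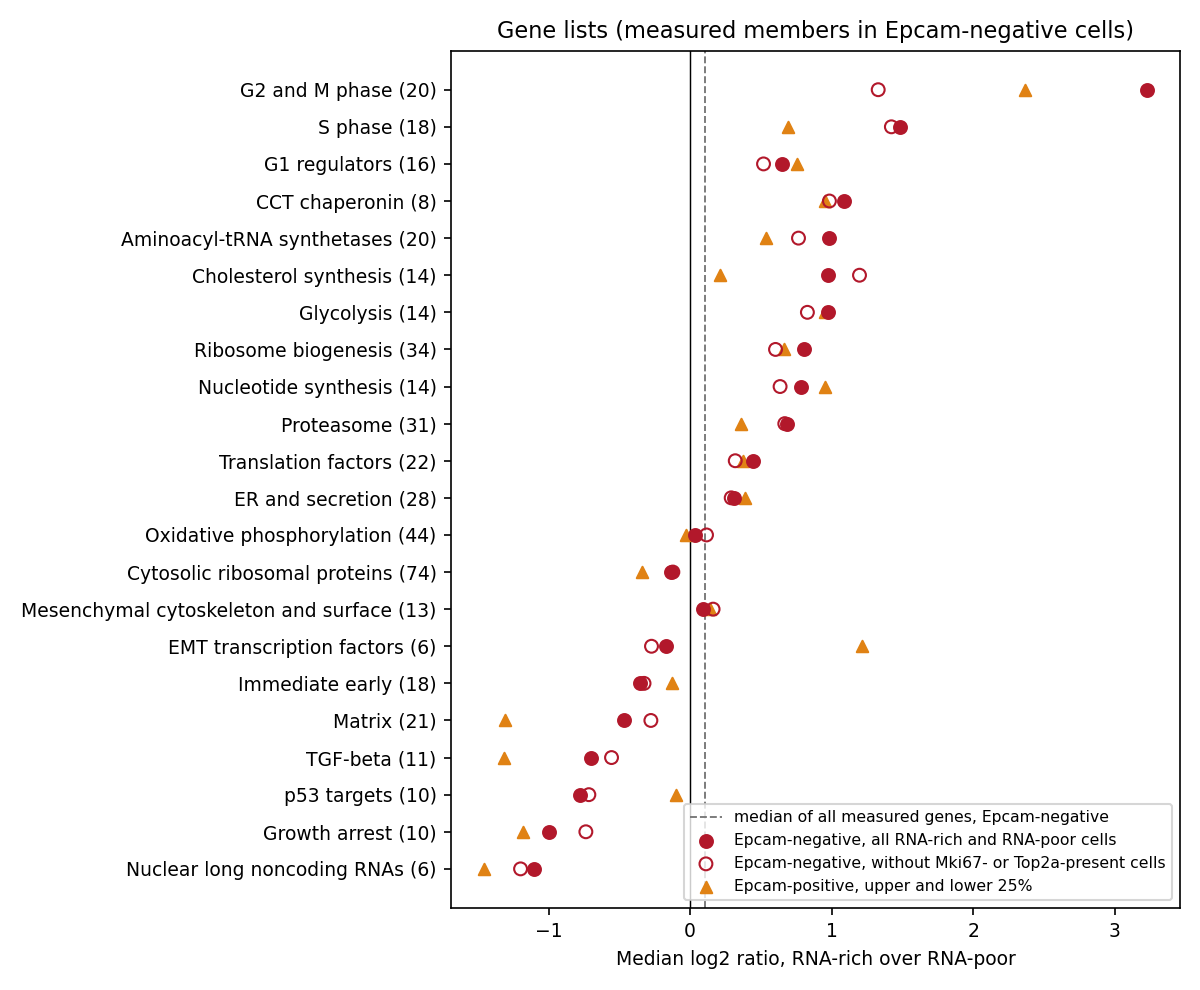
Median log2 ratio of each gene list, RNA-rich over RNA-poor, with the number of measured members in brackets. Filled circles are all RNA-rich and RNA-poor Epcam-negative cells, open circles the same without Mki67- or Top2a-present cells, triangles the upper and lower 25% of Epcam-positive cells; the dashed line is the median of all measured genes, 0.11. The G2 and M phase median is 3.22 with all cells and 1.33 without the Mki67- or Top2a-present ones.

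Nuclear noncoding RNAs and growth-arrest genes were among the genes lower in RNA-rich cells. Malat1 (chr19:5795690-5802672, minus strand), a long noncoding RNA retained in nuclear speckles, had 5.77 to 8763 CPM in RNA-rich cells, with a median of 2224, and 36.6 to 19756 CPM in RNA-poor cells, with a median of 5596. The distributions overlap, with the upper end held by RNA-poor cells, and no single cell decided the sum. The summed level was 2555 CPM in RNA-rich and 6138 CPM in RNA-poor cells, a ratio of -1.26. Neat1, the scaffold RNA of paraspeckles encoded next to it (chr19:5824708-5845478, minus strand), had a median of 743 CPM in RNA-rich and 2706 CPM in RNA-poor cells and a ratio of -1.35. From the lowest to the highest content group Malat1 had 6138, 4445, 4090 and 2555 CPM. Of 6 measured nuclear noncoding RNAs, 3 were at least 2-fold lower in RNA-rich cells, against the background of 11.2%, with a median of -1.10; the third was Kcnq1ot1, an imprinted antisense RNA, at -1.30. Counting without strand would mix it with its host gene, and the strand setting is not given in the sources used here.

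Of 10 growth-arrest genes, 5 were at least 2-fold lower in RNA-rich cells, against 11.2% of all genes. None was 2-fold higher, and the median was -0.999. Klf9, a glucocorticoid-responsive repressor of proliferation (chr19:23141226-23168134, plus strand), had 0 to 396 CPM in RNA-rich cells, with a median of 47.4, and 0 to 2570 CPM in RNA-poor cells, with a median of 147. It overlapped between the groups, was present in 34 RNA-rich and 45 RNA-poor cells, and had a ratio of -1.85, which was -1.80 in columns 1 to 12 and -1.90 in columns 13 to 24. Across the 4 content groups from low to high it had 288, 243, 180 and 79.2 CPM. Foxo3, a forkhead factor active when growth signalling is low, was present in 15 RNA-rich and 31 RNA-poor cells at a ratio of -1.49. Sesn3, a FOXO target that restrains mTORC1, had a ratio of -2.03, and Ypel3, a growth-suppressing protein, -1.41. Of 10 measured p53 targets, 3 were at least 2-fold lower, against 11.2% of all genes, among them Trp53inp1 (-1.90) and Sesn1 (-1.58). Zmat3 was higher (1.09), and all these cells are of the p53fl/fl genotype. The list median was -0.78, or 0.04 with the upper and lower 25% cut anew in columns 13 to 24. Trp53 itself had 18.0 CPM in RNA-rich and 22.5 CPM in RNA-poor cells; reads outside the deleted exons do not check the deletion.

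Of the 12 lowest genes by the rule of size and prevalence, Zfp949, a zinc-finger protein, had 14.2 CPM in RNA-rich and 87.4 CPM in RNA-poor cells, with presence in 4 and 22 cells and the lowest ratio, -2.54, which was -1.41 in columns 1 to 12 and -3.58 in columns 13 to 24. Tcf7l2, a Wnt-pathway transcription factor, was present in 14 RNA-rich and 27 RNA-poor cells at -2.08. Lgr4, a receptor for R-spondins that strengthens Wnt signalling, had a ratio of -1.95, which was -2.61 in columns 1 to 12 and -0.73 in columns 13 to 24. Sfrp2, a secreted Wnt modulator, Ebf1 and Nfia, transcription factors of mesenchymal lineages among others, and Ptn, the growth factor pleiotrophin, had ratios of -1.95, -2.09, -1.90 and -2.20. Tcp11l2 (-2.27), Tns2, an adhesion-linked tensin (-2.22), Ltbp2, a matrix protein of elastic fibres (-1.89), and Auts2, a regulator linked to Polycomb (-1.86), were also among them. Ltbp2 also led the TGF-beta list (median -0.70). Of its 11 measured members, 4 were at least 2-fold lower in RNA-rich cells, against 11.2% of all genes. Tgfb3, a ligand, and Ltbp1, which holds the latent ligand in the matrix, were lower at -1.32 and -1.15.

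**Figure D4:**
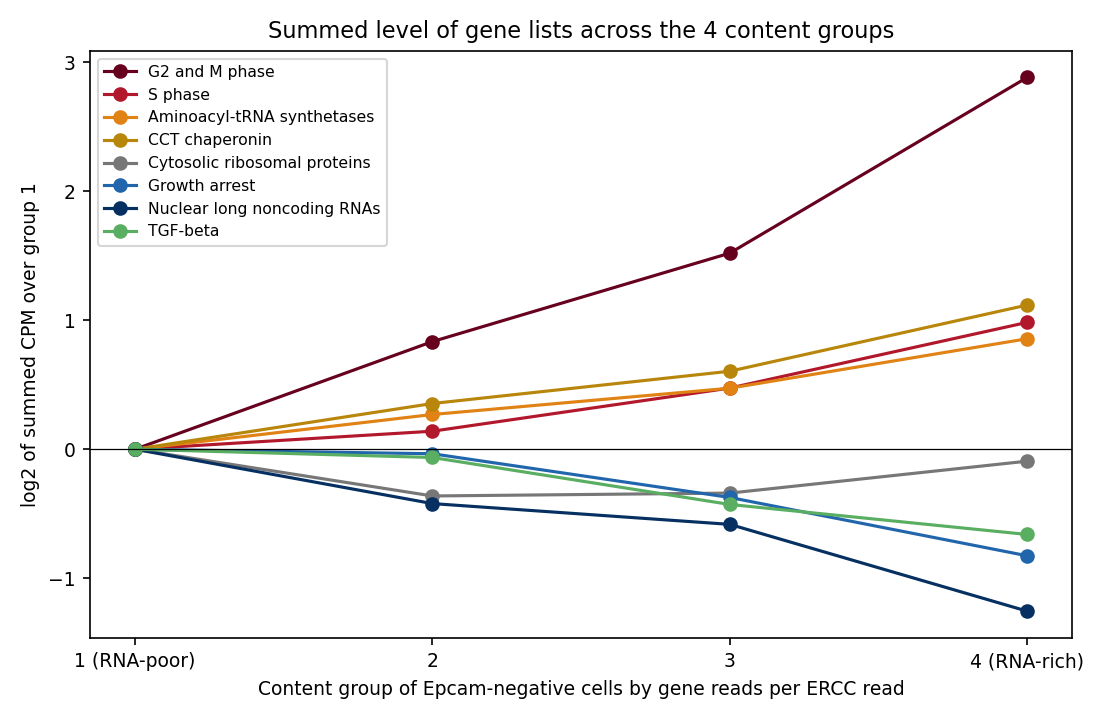
Summed CPM of 8 gene lists in the 4 content groups of Epcam-negative cells, from RNA-poor (1) to RNA-rich (4), as log2 over group 1. The G2 and M phase list runs through 171, 305, 490 and 1260 CPM, the nuclear noncoding RNAs through 9759, 7289, 6520 and 4091 CPM, and the cytosolic ribosomal proteins through 15690, 12209, 12398 and 14717 CPM.

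Few immediate early genes of cell stress and dissociation were 2-fold apart, but most had a ratio below 0. Of 18, 1 was 2-fold lower in RNA-rich cells, Fosb, an AP-1 subunit, at -1.15, against 11.2% of all genes. A ratio above 0 was found for 4 of the 18, against 55.1% of all measured genes. The list median was -0.35, against 0.11 over all measured genes. In the heat-shock list (12 genes, median 0.25) 1 gene was 2-fold higher and 2 were lower, against 14.4% and 11.2% of all genes. Hspd1, the mitochondrial chaperonin, was higher at 1.50, and Bag3 and Hspa1b, a co-chaperone and an inducible HSP70, were lower at -1.11 and -1.03. Myc, a driver of growth and ribosome assembly, gave opposite answers by measure. Its summed level was 205 CPM in RNA-rich and 409 CPM in RNA-poor cells (ratio -0.99), but it was present in 55 RNA-rich and 38 RNA-poor cells and its median per cell was 173 CPM in RNA-rich and 86.1 CPM in RNA-poor cells. Single RNA-poor cells reached 3088 CPM, against at most 823 CPM in RNA-rich cells. Presence in more RNA-rich than RNA-poor cells was found for 79.8% of all measured genes.

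Vimentin and the EMT transcription factors differed little between the groups, while the matrix and dermal fibroblast lists had medians below 0 (-0.47 and -1.34). Vim, vimentin, had 25.1 to 13247 CPM in RNA-rich cells (median 5531) and 10.3 to 18984 CPM in RNA-poor cells (median 4539). It was present in 64 and 61 cells, and its ratio was 0.09. Of 13 mesenchymal cytoskeleton and surface genes, 1 was 2-fold apart, Acta2, smooth-muscle actin. It had 3279 CPM in RNA-rich and 1225 CPM in RNA-poor cells (59 and 42 cells, ratio 1.42). No EMT transcription factor was 2-fold apart (6 measured, median -0.17); Zeb1 had 0.51 and Twist1 -0.67. Of 21 matrix genes, 3 were at least 2-fold lower in RNA-rich cells, a share near the 11.2% of all genes, and none was 2-fold higher. Of its 21 genes, 3 had a ratio above 0, and the sum of the list per cell had a median of 23308 CPM in RNA-rich and 42573 CPM in RNA-poor cells. Dcn, the proteoglycan decorin, had a median of 88.7 CPM in RNA-rich and 815 CPM in RNA-poor cells and a ratio of -1.11. The others were Mfap5, a microfibril protein (-1.61), and Lum, lumican (-2.60), of whose RNA-poor reads 88.8% came from 1 cell. Col1a1, a chain of collagen I, had -0.37. Of the integrins and adhesion receptors used to define Epcam-negative subpopulations, Itgav was present in 58 RNA-rich and 30 RNA-poor cells at a ratio of 0.49. Itgb3 was present in 6 and 3 cells. Over all measured genes, 79.8% were present in more RNA-rich than RNA-poor cells, with medians of 18 RNA-rich and 10 RNA-poor cells. Vcam1 was present in 26 and 13 cells while its sum was lower in RNA-rich cells (84.4 CPM, against 208 CPM in RNA-poor cells), and 57.1% of the RNA-poor reads came from 1 cell.

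Keratins ran in both directions. Of 8 measured keratins, 4 were at least 2-fold higher and 2 at least 2-fold lower in RNA-rich cells (median 1.23). The shares over all genes were 14.4% higher and 11.2% lower. Of 12 measured epithelial junction genes, 2 were higher and 2 lower (median 0.14), near those shares. Of 4 measured epithelial regulators, 2 were lower. Krt8 (chr15:101996698-102004482, minus strand), a keratin of simple epithelia, had 120 CPM in RNA-rich and 9.19 CPM in RNA-poor cells and was present in 24 and 4 cells, a ratio of 3.57. Krt18, its filament partner, was present in 21 and 5 cells at 2.61. Both lay among the 12 highest genes. In the 4 content groups from low to high Krt8 had 9.19, 64.1, 108 and 120 CPM. Krt14, a basal keratin, had 2477 CPM in RNA-rich and 1483 CPM in RNA-poor cells but was present in nearly equal numbers, 34 and 32 cells. Krt6a, a wound keratin whose reads may be shared with Krt6b, was present in 17 and 9 cells at a ratio of 2.37.

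The opposite epithelial signal came from few RNA-poor cells. Epcam was present in 1 RNA-rich and 5 RNA-poor cells, with 3.20 CPM in RNA-rich and 110 CPM in RNA-poor cells, although all were sorted as negative. Krt15, a keratin of hair follicle stem cells, was present in 2 and 6 cells, with 3.75 CPM in RNA-rich and 241 CPM in RNA-poor cells, and 54.6% of the RNA-poor reads of Krt17, a follicle keratin, came from 1 cell. Without the cells in which Epcam was present, Krt17 was higher in RNA-rich cells (2.56). Markers of other stromal cells were likewise unequal, beside 14.4% higher and 11.2% lower among all genes. Of 6 measured dermal fibroblast markers, 4 were at least 2-fold lower and Cd34 higher (1.21) in RNA-rich cells, and the list summed to 10.4 to 28812 CPM in RNA-rich and 10.7 to 32516 CPM in RNA-poor cells (medians 456 and 1640). Mesenchymal tumour cells make several of these, such as Dcn and Lum. Of 4 measured pericyte markers, 3 were at least 2-fold lower, with sums of 0 to 231 CPM in RNA-rich and 0 to 8598 CPM in RNA-poor cells. Rgs5, the defining one, was present in 0 RNA-rich and 2 RNA-poor cells. Leaving out cells with 2 or more of 9 fibroblast and pericyte markers left 43 RNA-rich and 38 RNA-poor cells, and gave medians of 2.12 for the G2 and M phase list, 1.01 for the aminoacyl-tRNA synthetases, -0.50 for the matrix genes and -1.11 for the nuclear noncoding RNAs. Immune markers reached 10 CPM for 2 of 9 genes (sums of 0 to 481 CPM in RNA-rich and 0 to 878 CPM in RNA-poor cells), and no endothelial, melanocyte or erythroid marker was measured. Of 4 skeletal muscle markers 1 was measured, with a ratio of 3.53 and sums of the list of 0 to 230 CPM in RNA-rich and 0 to 6.20 CPM in RNA-poor cells. The part of these markers in the results was not tested.

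Per spike-in read nearly every gene was higher in RNA-rich cells, as the rule sets. The summed content differed 7.41-fold, a log2 of 2.89, and 128 of 9515 genes (1.35%) had fewer reads per ERCC read in RNA-rich cells. Malat1 had 837 reads per 1000 ERCC reads in RNA-rich and 272 in RNA-poor cells, so the RNA that was lower in CPM was 3.08-fold higher on this scale. Klf9 was 2.04-fold higher, with 26.0 and 12.7 reads per 1000 ERCC reads. Zfp949 was nearly level, 4.67 in RNA-rich and 3.87 in RNA-poor cells. Cdk1, with 52.5 in RNA-rich and 0.82 in RNA-poor cells, was 63.8-fold higher. Epcam and Krt15 were below 1 on this scale too, at 0.21 and 0.12 times the RNA-poor level.

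Ratios were also computed without the cells in which a proliferation marker was present, which does not remove every cycling cell. Without the cells in which Mki67 or Top2a was present, 46 RNA-rich and 57 RNA-poor cells remained, and 1082 of the 1366 higher and 923 of the 1069 lower genes were still 2-fold apart. The medians were 0.77 for the aminoacyl-tRNA synthetases, 0.98 for the CCT chaperonin, 0.60 for ribosome biogenesis, 0.83 for glycolysis, 1.42 for S phase and -1.19 for the nuclear noncoding RNAs. The G2 and M phase median was 1.33, a list that holds both genes used to leave cells out. Cdk1 still had 56.2 CPM in RNA-rich and 4.90 CPM in RNA-poor cells, while Kif11 was lower in RNA-rich cells, at -0.26. Within columns 1 to 12 and columns 13 to 24, all cells included, the medians were 2.68 and 3.33 for G2 and M phase, 1.09 and 1.95 for S phase, 0.60 and 1.35 for the aminoacyl-tRNA synthetases, 0.73 and 1.64 for the CCT chaperonin, 0.46 and 1.07 for ribosome biogenesis, -0.83 and -0.93 for the growth-arrest list and -0.96 and -1.11 for the nuclear noncoding RNAs.

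Epcam-positive cells of the same plate, cut by the same rule, gave a second pair of groups that shares no cell with the first. The upper 15 of 62 kept cells had a median content of 381 and the lower 15 a median of 54.0, a ratio of 7.06. With fewer cells more genes were apart: of 9351 measured, 2200 (23.5%) were at least 2-fold higher and 2173 (23.2%) at least 2-fold lower in the upper group. The G2 and M phase list had a median of 2.37 there (18 members higher), the CCT chaperonin 0.95, ribosome biogenesis 0.66, glycolysis 0.95, the growth-arrest list -1.18, the TGF-beta list -1.31 and the nuclear noncoding RNAs -1.45. Malat1 had 516 CPM in the upper and 2385 CPM in the lower Epcam-positive group, and Klf9 12.4 and 101 CPM. Mki67 or Top2a was present in 9 of 15 upper and 2 of 15 lower cells. Cholesterol synthesis was nearer 0 there (median 0.21, against 0.98 in Epcam-negative cells), and Acta2 was lower in the upper Epcam-positive group (-1.65). S phase (0.69, against 1.48) and the aminoacyl-tRNA synthetases (0.54, against 0.98) were also nearer 0. Medians on the other side of 0 included those of the EMT transcription factors (1.21, against -0.17) and the YAP list (-1.08, against 0.04). The heat-shock list (-0.63, against 0.25) and MHC class I (0.92, against -0.10) were further cases. These differences between the populations were not tested.

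Length and type of the genes differed between the directions. The median summed exon length was 3812 bases for genes at least 2-fold higher in RNA-rich cells and 5608.5 bases for those at least 2-fold lower, against 4648 bases over all measured genes. Protein-coding genes made up 98.7% of the higher and 86.2% of the lower genes, against 96.8% of all measured, and long noncoding RNAs 0.73%, 13.4% and 2.68%.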

How the data were processed

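The authors deposited 1 table of raw counts, with genes and ERCC spike-ins as lines and wells as columns. The tools behind it, per the submitters' processing notes, were cutadapt 1.13, STAR 2.5.2b with build GRCm38, and HTSeq 0.6.0. Which annotation release and strand setting HTSeq used is not given in the sources used here. Reads carry no molecular identifiers, so amplification copies count as reads. Per the labels' protocols a doublet gate was used in the sort, wells with little cDNA were discarded, and no doublet caller was run here. Of 49585 gene identifiers, 49326 were given a symbol from GENCODE, without the version suffix.

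Depth was 104330 to 900492 gene reads per kept cell. Counts were summed over the RNA-rich and over the RNA-poor cells, scaled to CPM and compared as log2 ratios with a pseudocount of 1 CPM; a gene was measured at 10 CPM in either group, and "2-fold apart" is a size, not a test. Intervals at 95% are Poisson (CPM), Clopper-Pearson (shares) and conditional binomial (ratios). Thinning to 100000 reads used a fixed seed, and a gene was present at 5 thinned reads. Named genes are the 12 highest and 12 lowest ratios that meet these limits in the group with the higher level: 50 CPM or more, presence in 30% of cells or more, and no cell with over 25% of reads. Their direction is shared by columns 1 to 12 and 13 to 24, and the rule leaves out predicted, mitochondrial and ribosomal protein genes. Per list, the 2 to 4 largest ratios and members against the list are named, and a few genes always; some genes that meet these rules are not reported here. Genes named beside these, such as Pcna, Cks2 and the 5 with printed promoters, were chosen after their values were seen. The members and lists were chosen with earlier results of these data known. Promoters are RefSeq windows of GRCm38.p6; motifs were searched on both strands as TTTGAA and CCAAT. The fold calls and intervals were tested on simulated data, with Poisson counts from a shared profile and known folds. That setting has no further spread between cells, so it cannot show how the calls and intervals behave in real cells. Python 3.11.15, numpy 2.4.6, pandas 2.3.3, scipy 1.17.1 and matplotlib 3.10.9 were used, and R 4.3.3 with edgeR 4.0.16 (TMM) and DESeq2 1.42.0 (size factors) for scaling factors only.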

Additional observations from a re-analysis of the deposited data

Results flagged for a closer look

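The well set up with 50 Epcam-negative cells was not part of the comparison and had 4426 gene reads per ERCC read (3182 to 6354 by counting error on its 35 ERCC reads), 28.2 times the median of the kept single Epcam-negative cells.

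The well set up with 0 Epcam-positive cells had 12.1 gene reads per ERCC read and 8248 genes with a read, more than the 0.312 of the 0-cell Epcam-negative well, and lay above the content of 1 RNA-poor cell. It held 695 CPM of Epcam, 9029 CPM of Krt14, 1380 CPM of Vim and 181 CPM of Cdk1. What these reads came from was not tested.

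Ptn, the growth factor pleiotrophin, was lower in RNA-rich than in RNA-poor Epcam-negative cells (63.3 CPM, against 294 CPM, ratio -2.20), but had a ratio of 1.129 between the upper and the lower 25% of Epcam-positive cells (84.7 CPM and 38.2 CPM). The difference between the populations was not tested.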

How the results depend on the processing

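The cells of 1 plate, without named animals, limit every ratio, and depth limits genes near 10 CPM. Over all alternatives run, 28 of 41 list medians and 110 of 126 genes followed kept their sign, and TMM or DESeq2 factors moved the median of all genes to 0.03. The counts higher and lower were 2577 and 2185 with no filter on low values, 510 and 340 at 50 CPM, 700 and 507 with a pseudocount of 10 CPM, and 545 and 380 between the upper and lower 50% of cells; with the upper and lower 25% cut anew within each set of columns, as for all column values here, the higher count in columns 13 to 24 was 2191. The G2 and M phase median was 1.87 with a pseudocount of 10 CPM, 1.93 between the upper and lower 50%, 3.86 with the stricter filter on cells, 3.94 without Epcam-present cells, 1.33 without Mki67- or Top2a-present cells, 2.12 without cells with 2 stromal markers and 3.87 without the 6 RNA-poor cells with many genes. The ratio of genes per cell was 1.34 between the upper and lower 50%. The mitochondrial medians in columns 13 to 24 were 4.94% in RNA-rich and 4.08% in RNA-poor cells, and 3.82% in RNA-poor cells with the stricter filter. At 1 thinned read Mki67 or Top2a was present in 46.2% of RNA-rich and 26.2% of RNA-poor cells. Some ratios changed sign: Krt17 to 0.62 in columns 13 to 24 and 2.56 without Epcam-present cells, Epcam to 0.61 without those cells, Trib3 to 0.93, Mmp3 to -2.24, Mmp10 to -2.55 and Oasl2 to 0.34 in columns 13 to 24, Ankrd37 to 0.48 in columns 1 to 12, Ifit1 to -0.85 with the top cell of each group taken out, Rgs5 to 0.26 and the pericyte list to 0.094 with the stricter filter, and Kif11 to -0.26 without Mki67- or Top2a-present cells. Without cells with 2 stromal markers the pericyte list had 0.15, Vcam1 0.80, Trib3 0.55, Rgs5 0.46, Mmp10 -0.57 and Adm 0.020. The cause of these changes was not tested. The 2 alternatives on stromal markers and on plate columns 18 to 20, and those on the 6 cells and on CT010467.1, were chosen after seeing the data. No paired analysis was possible because the wells carry no replicate numbers shared between the groups.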

Other observations

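Some gene groups outside the growth and arrest lists were read beside the same background of 14.4% higher and 11.2% lower genes. Of 10 YAP pathway genes, 2 targets were at least 2-fold higher in RNA-rich cells, Ajuba, a LIM protein, at 1.43, and Ankrd1, a stretch-responsive protein, at 1.31 (list median 0.04, or -0.03 with TMM factors). Yap1, the co-activator itself, had 1391 CPM in RNA-rich and 753 CPM in RNA-poor cells (0.88). Of 9 measured matrix proteases and inhibitors, 3 were at least 2-fold higher in RNA-rich cells, Plau, the urokinase activator of plasminogen (1.19), and the stromelysins Mmp3 (1.10) and Mmp10 (1.03), in a list with a median of -0.39. Mmp3 was present in 37 RNA-rich and 40 RNA-poor cells, so its higher sum did not come with more cells, and in columns 13 to 24 Mmp3 and Mmp10 were lower in RNA-rich cells, at -1.85 and -2.30. Without cells with 2 stromal markers Mmp10 was lower too (-0.57), and the list median was 0.37 when the upper and lower 25% were cut anew in columns 1 to 12. Of 10 hypoxia genes, 1 was higher, Egln3, an oxygen sensor (1.53), and 3 were lower, Adm, the peptide adrenomedullin (-1.36), Vegfa, the angiogenic factor (-1.14), and Ankrd37 (-1.08), with a median of 0.07; Ankrd37 was higher in columns 1 to 12 (0.17), and Adm was nearly level (0.020) without cells with 2 stromal markers.

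Of 19 lysosome and ferritin genes, 2 were at least 2-fold lower in RNA-rich cells, among them Neu1, a sialidase (-1.26), with a median of -0.32. No MHC class I gene (9 measured, median -0.10), no snoRNA host gene (6 measured, median -0.40) and no collagen hydroxylase or collagen chaperone (12 measured, median 0.15) was 2-fold apart. Of 10 measured interferon response genes, Ifit1, an antiviral effector, was higher at 1.60 with presence in 3 RNA-rich and 3 RNA-poor cells, and Oasl2, an antiviral synthetase-like protein, was lower at -1.16. Ifit1 had -0.85 with the top cell of each group taken out, and Oasl2 had 0.34 with the upper and lower 25% cut anew in columns 13 to 24. Of 15 measured Myc pathway genes, 4 were at least 2-fold higher, Srm, spermidine synthase (1.25), Phb, prohibitin (1.23), Nme1, a nucleoside diphosphate kinase (1.18), and Mrto4, a ribosome assembly factor (1.07), with a median of 0.21.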
